A study of Homo sapiens with 2 samples.

Results

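The nuclear receptors other than the androgen receptor were compared between enzalutamide-sensitive and enzalutamide-resistant prostate cancer cells. They were taken from the deposited table by gene symbol, without use of their values, and 47 of the 25343 rows matched. The cells were C4-2B, a castration-resistant subline descended from LNCaP through C4-2. C4-2B Con (n = 1 library, 21024484 reads in genes) was the sensitive line, kept in RPMI 1640 medium with fetal bovine serum and DMSO. C4-2B ENZR (n = 1 library, 23479051 reads) was the resistant line, kept in the same medium with 20 µM enzalutamide, an antagonist of the androgen receptor. The suffix shC closes the title of each library and has no explanation in the labels. The resistant line was sampled with the drug named in its maintenance medium, so resistance and the presence of the drug cannot be told apart. No value has a replicate, so each difference describes these 2 libraries and how far cultures of a line differ is unknown.

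Nuclear receptors are transcription factors, most of which bind DNA through a zinc-finger domain and carry a pocket for small lipophilic ligands such as steroids, retinoids, thyroid hormone, vitamin D, fatty acids, oxysterols or haem. Ligand binding exchanges corepressor complexes for coactivators. Many members act as heterodimers with a retinoid X receptor, and the orphan members have no agreed natural ligand. In prostate cancer the family is known mainly for the androgen receptor itself and, under antiandrogens, for the glucocorticoid receptor, which can take over some of its target genes.

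The 12 luminal prostate markers, among them KRT8, KRT18, HOXB13 and FOLH1, all had a mean of 1 CPM or more, with a summed level of 5307 CPM in Con against 3291 CPM in ENZR. Most of that difference was KLK3, the androgen-driven prostate-specific antigen, at 1428 and 3.72 CPM. The basal markers KRT5 and TP63 had 0 reads in both libraries, and the 5 basal markers summed to 0.392 CPM and 0.243 CPM. The blood cell markers, which include CD3E and HBB at 0 in both, summed to 3.43 CPM in Con and 5.30 CPM in ENZR, most of it LYZ at 2.94 and 5.10 CPM. Of the 10 stromal and endothelial markers, 5 were measured, and the sum over all 10 was 32.2 CPM in Con against 53.7 CPM in ENZR, most of it COL1A1. The part of these cell types in the results was not tested. In bulk RNA, fewer cells that express a gene and less of its RNA per cell cannot be told apart.

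Of the 47 receptors, 28 had a mean over both libraries of 1 CPM or more, where CPM is reads per 1000000 after the authors' TMM scaling. These 28 are called measured below. Differences were taken as log2 of the ENZR level over the Con level, with 1 CPM added to each, which understates differences of low genes. Folds are given as CPM ratios without a pseudocount, and the interval in brackets is the exact 95% binomial (Clopper-Pearson) interval of that ratio, which covers counting error only. In ENZR, 2 of the 28 measured receptors were at least 2-fold higher by the log2 ratio (7.14%), beside 6.69% of the 13803 genes measured. Likewise 2 were at least 2-fold lower (7.14%), beside 4.64% of all genes. The shares thus lay near those of all genes. The median log2 ratio of the receptors was -0.05, beside -0.01 over all genes, with 13 receptors above 0 and 15 below. When the authors' scaling was undone, the median of all genes moved to 0.10 and that of the receptors to 0.07. Small differences therefore depend on the scaling.

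The higher pair was PPARG and RORA, and the lower pair NR2F1 and NR1D2. RORA, at 0.392 CPM in Con against 2.02 CPM in ENZR, passed the filter on low values only through its level in ENZR. Just inside the 2-fold line lay RORA with a log2 ratio of 1.12, and just outside it NR6A1 (0.86) and RARB (-0.98). At the filter on low values, HNF4G (mean 1.04 CPM) was just inside and PGR (mean 0.958 CPM) just outside. Without that filter PGR joined the lower receptors. The plot of levels by library shows 27 of the 28.

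**Figure D1:**
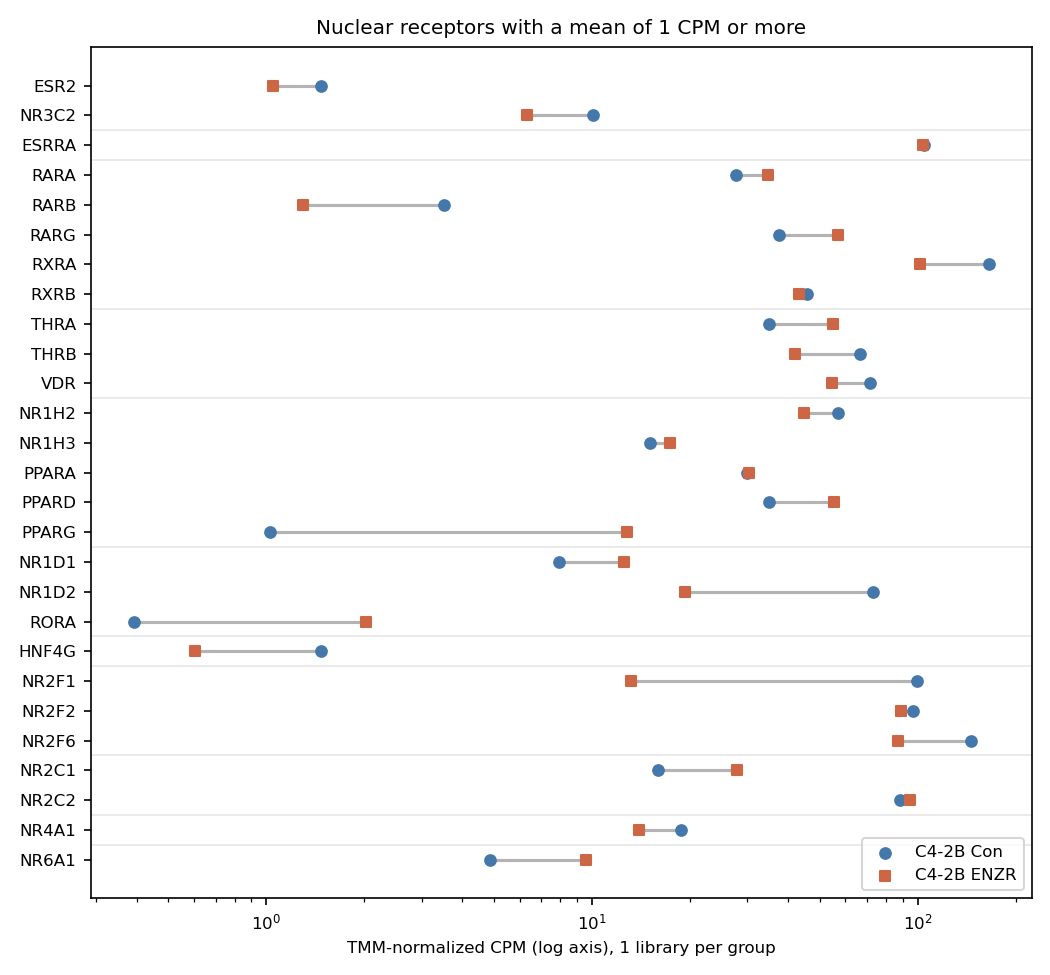
TMM-normalized CPM (log axis) of 27 measured nuclear receptors in C4-2B Con (circles) and C4-2B ENZR (squares), 1 library each, ordered by receptor class and separated by grey lines. The longest connecting lines belong to PPARG (1.03 and 12.8 CPM), NR2F1 (99.3 and 13.1 CPM), RORA (0.392 and 2.02 CPM) and NR1D2 (73.1 and 19.3 CPM), while ESRRA, PPARA and RXRB have nearly coinciding points.

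Among the steroid receptors, levels were low beside those of most other measured receptors. NR3C2, the mineralocorticoid receptor, was measured at 10.1 CPM in Con against 6.31 CPM in ENZR, 1.60-fold lower (1.29 to 1.98). ESR2, estrogen receptor beta, stood at 1.47 and 1.05 CPM on 30 and 26 reads, and the interval of the ENZR over Con ratio, 0.406 to 1.25, held 1. ESR1, estrogen receptor alpha, had 1 read in Con against 6 in ENZR. NR3C1, the glucocorticoid receptor, had 1 and 7 reads (0.0490 and 0.283 CPM). Both thus lay near the limit that a count of 0 allows, 0.147 CPM in Con against 0.121 CPM in ENZR. PGR, the progesterone receptor, had 35 reads in Con against 5 in ENZR, 8.48-fold lower with a wide interval (3.31 to 27.7).

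ESRRA, the estrogen-related receptor alpha that drives genes of mitochondrial energy metabolism, was among the most abundant receptors and differed little, at 105 CPM in Con against 104 CPM in ENZR (ENZR over Con 0.988, 0.933 to 1.05). Its log2 ratio of -0.02 changed sign when the TMM scaling was undone. ESRRG had 13 and 16 reads, and ESRRB 0 and 2. Of 15 measured genes on the list of ERR targets, which includes ESRRA itself, 0 passed 2-fold in either direction. Over all genes, 6.69% passed it upward and 4.64% downward, so few of 15 genes would pass at those shares. On the list, 4 genes were above 0 and 11 below, with a median log2 ratio of -0.16. The lowest was SDHA, a succinate dehydrogenase subunit, at 223 and 112 CPM.

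The retinoid X receptors, shared partners of many other members, were lower or close to level. RXRA stood at 166 CPM in Con against 101 CPM in ENZR, 1.63-fold lower (1.55 to 1.72). RXRB was at 45.7 and 43.2 CPM, and its ENZR over Con ratio of 0.946 (0.865 to 1.03) crossed 1 with the TMM scaling undone. RXRG had 0 reads in Con against 11 in ENZR, and the interval of the ENZR over Con ratio began at 2.07. The retinoic acid receptors split. RARG stood at 37.5 and 56.9 CPM, 1.52-fold higher in ENZR (1.39 to 1.66), and RARA at 27.7 and 34.7 CPM, 1.25-fold higher (1.12 to 1.39). RARB was lower, at 3.53 CPM in Con against 1.29 CPM in ENZR on 72 and 32 reads, 2.73-fold (1.77 to 4.27).

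RARB is a classical target of retinoic acid, and 1 of its 4 start sites in RefSeq (GRCh38.p14) holds a direct repeat of the kind that RAR and RXR heterodimers bind. The 250 bases upstream of that start, chr3:25428013-25428262 on the plus strand, are shown because they hold this element. Capitals mark the match, GGTTCA and AGTTCA with 5 bases of any kind between them, searched on both strands, whose first base lies 53 bases upstream of the start.
RARB: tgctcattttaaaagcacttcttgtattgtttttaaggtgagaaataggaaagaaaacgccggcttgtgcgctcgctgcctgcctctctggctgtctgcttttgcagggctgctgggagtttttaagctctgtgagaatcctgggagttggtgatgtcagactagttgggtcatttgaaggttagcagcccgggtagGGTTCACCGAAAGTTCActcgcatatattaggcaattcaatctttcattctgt
Among 35116 upstream windows of the same length over all genes, 6 (0.0171%) held this exact repeat, and RARB was the only receptor gene among them. The half-sites searched are spelled as in RARB, so its own match carries no weight. Other spellings of the repeat were not searched, so how common they are near receptor genes is not known from these counts. The other direct targets on the retinoic acid receptor list were mostly near or below detection. Of its 15 genes 3 were measured, RARB itself among them. CYP26B1, which breaks down retinoic acid, had 2 reads in Con against 144 in ENZR, a ratio of 59.4 with an interval of 16.2 to 495. DHRS3, a retinal reductase, stood at 8.13 and 21.5 CPM, 2.65-fold higher (2.22 to 3.17). RARB thus had the opposite direction to CYP26B1 and DHRS3 in the same libraries. CYP26B1 passed the filter on low values only through its level in ENZR, so as a measured gene it could only be higher.

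The thyroid hormone receptors also differed in opposite directions. THRA stood at 35.1 CPM in Con against 55.0 CPM in ENZR, 1.57-fold higher (1.43 to 1.72). THRB stood at 66.4 and 42.1 CPM, 1.58-fold lower (1.45 to 1.71). On the list of thyroid hormone targets, which includes THRB, 0 of 7 measured genes were above 0 and 7 were below (all genes, 6976 of 13803), with a median log2 ratio of -0.64. At least 2-fold lower were 3 of them, beside 4.64% of all genes. DIO1, the deiodinase that activates thyroxine, was 5.40-fold lower (4.80 and 0.890 CPM). ME1, the cytosolic malic enzyme, was 2.43-fold lower (140 and 57.5 CPM), and HR, the hairless corepressor, 3.80-fold lower on 69 and 22 reads. DIO1 and HR passed the filter on low values only through their level in Con. On the same list, MYH6 (0 and 9 reads) and THRSP (23 and 4 reads) missed that filter. The median of this list stayed below 0 in each setting of scaling, pseudocount and filter that was run. VDR, the vitamin D receptor, was at 71.6 and 54.6 CPM, 1.31-fold lower (1.22 to 1.41). CYP24A1, the most strongly induced vitamin D target, had 0 reads in both libraries. Of 6 measured vitamin D targets, IGFBP3, an IGF-binding protein, was 20.2-fold higher (16.4 to 25.1), and TRPV6, an epithelial calcium channel, 2.27-fold lower (2.03 to 2.55).

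Among the lipid sensors PPARG stood apart from its paralogs. PPARG, the fatty acid receptor that directs adipocyte differentiation, had 21 reads in Con against 317 in ENZR, or 1.03 and 12.8 CPM, 12.5-fold higher (8.01 to 20.4). It had the highest log2 ratio of the family (2.77), which ranged from 1.56 with a pseudocount of 5 CPM to 3.35 with 0.25 CPM. PPARD stood at 34.9 and 55.5 CPM, 1.59-fold higher (1.45 to 1.74), and PPARA at 30.0 and 30.3 CPM, with a ratio of 1.01 (0.907 to 1.13).

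RefSeq lists 6 starts for PPARG, and 3 of the 6 upstream windows held AGGTCA, the core hexamer that many nuclear receptors recognise. One of them, chr3:12287118-12287367 (GRCh38.p14, plus strand), is shown because PPARG had the highest log2 ratio and this window holds 2 copies. The capitals mark the copies, whose first bases lie 217 and 184 bases upstream of the start.
PPARG: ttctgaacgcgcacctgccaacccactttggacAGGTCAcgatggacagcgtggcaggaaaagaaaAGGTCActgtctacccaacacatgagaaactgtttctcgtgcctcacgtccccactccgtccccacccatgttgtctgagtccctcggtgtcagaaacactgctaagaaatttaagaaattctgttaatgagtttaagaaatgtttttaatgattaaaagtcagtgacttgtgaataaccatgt
The hexamer was searched on both strands and occurred in 12.1% of all 35116 windows and in 15 of the 96 windows of receptor genes. Which of the PPARG starts gave the reads cannot be read from a value per gene.

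The list of PPAR targets had no common direction. Of its 25 genes 12 were measured, with 7 above 0, 5 below and a median log2 ratio of 0.20. At least 2-fold higher was 1 of them (all genes, 6.69%), and 3 were at least 2-fold lower (all genes, 4.64%). The adipocyte genes FABP4 and PLIN1, classical PPARG targets, had 0 reads in both libraries and 1 and 8 reads. PLIN2, a lipid droplet coat protein, had 10 and 3 reads. ACAA2, a mitochondrial thiolase of fatty acid oxidation, stood at 5.73 and 36.7 CPM, 6.40-fold higher (5.27 to 7.83). LPL, lipoprotein lipase, was 10.1-fold lower (35.5 and 3.52 CPM), and the peroxisomal enzyme EHHADH 2.59-fold lower.

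The liver X receptors, which sense oxysterols, differed less. NR1H2 (LXR beta) stood at 56.8 and 44.6 CPM, 1.27-fold lower (1.17 to 1.38), and NR1H3 (LXR alpha) at 15.1 and 17.3 CPM with a ratio of 1.15 (0.991 to 1.34). Among 11 measured LXR targets, which include NR1H3, 6 were above 0 and 5 below. Of these, 1 was at least 2-fold higher (all genes, 6.69%) and 3 at least 2-fold lower (all genes, 4.64%). The lipogenic members SREBF1 and SCD, a fatty acid desaturase, were 3.68-fold and 3.02-fold lower (SCD, 1647 and 545 CPM). LPL was lower too, as given above. ABCA1, the cholesterol exporter, had 21 and 71 reads, with a log2 ratio of 0.93.

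The clock receptors held both a higher and a lower member past 2-fold. NR1D2 (REV-ERB beta), a haem-binding repressor of clock genes, stood at 73.1 CPM in Con against 19.3 CPM in ENZR, 3.79-fold lower (3.42 to 4.21). Its paralog NR1D1 (REV-ERB alpha) was at 7.94 and 12.5 CPM, 1.58-fold higher (1.30 to 1.92). RORA, an activator that competes with the REV-ERBs for the same response elements, had 8 reads in Con against 50 in ENZR, 5.16-fold higher (2.43 to 12.6), a difference that did not reach 2-fold with a pseudocount of 5 CPM (log2 ratio 0.38). RORB had 0 reads in both libraries.

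NR1D2 has 2 starts in RefSeq, and the window upstream of 1 of them holds 2 copies of CACGTG, the E-box bound by the CLOCK and BMAL1 heterodimer. The window, chr3:23945871-23946120 (GRCh38.p14, plus strand), is shown because NR1D2 was the lower clock receptor, with the E-boxes in capitals at 155 and 105 bases upstream of the start.
NR1D2: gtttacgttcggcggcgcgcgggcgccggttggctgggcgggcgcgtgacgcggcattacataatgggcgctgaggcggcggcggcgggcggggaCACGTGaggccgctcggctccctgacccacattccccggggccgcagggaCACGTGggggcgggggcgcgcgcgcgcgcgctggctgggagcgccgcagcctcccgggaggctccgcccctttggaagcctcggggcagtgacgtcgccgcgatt
CACGTG reads the same on both strands and was present in 6.34% of all 35116 windows. Among the receptor genes, ESR2, NR2C1, NR2F2 and NR5A1 also had it, and the single window of NR1D1 did not.

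All 15 genes on the list of REV-ERB and ROR clock targets were measured, and 11 were above 0 and 4 below, with a median log2 ratio of 0.76 beside -0.01 over all genes. Of the 15, 5 were at least 2-fold higher (all genes, 6.69%) and 2 at least 2-fold lower (all genes, 4.64%). NPAS2, a paralog of CLOCK, stood at 4.75 and 17.1 CPM, 3.59-fold higher (2.87 to 4.53). The cryptochromes, repressors of the clock, were higher too: CRY2 2.95-fold (11.5 and 33.8 CPM) and CRY1 2.22-fold (30.5 and 67.7 CPM), as was PER1 at 2.06-fold. Of the other period genes, levels stood at 27.8 and 58.6 CPM for PER2 (2.11-fold higher) and 65.5 and 129.7 CPM for PER3, whose log2 ratio of 0.98 lay just under the line. ARNTL, which encodes BMAL1 and is a direct REV-ERB target, was at 10.5 and 17.4 CPM. CLOCK went the other way, at 59.3 CPM in Con against 30.0 CPM in ENZR. The transcriptional repressor BHLHE41 was 4.04-fold lower (2.60 to 6.46) and HLF, a PAR bZIP factor, 2.11-fold lower (1.89 to 2.36).

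**Figure D2:**
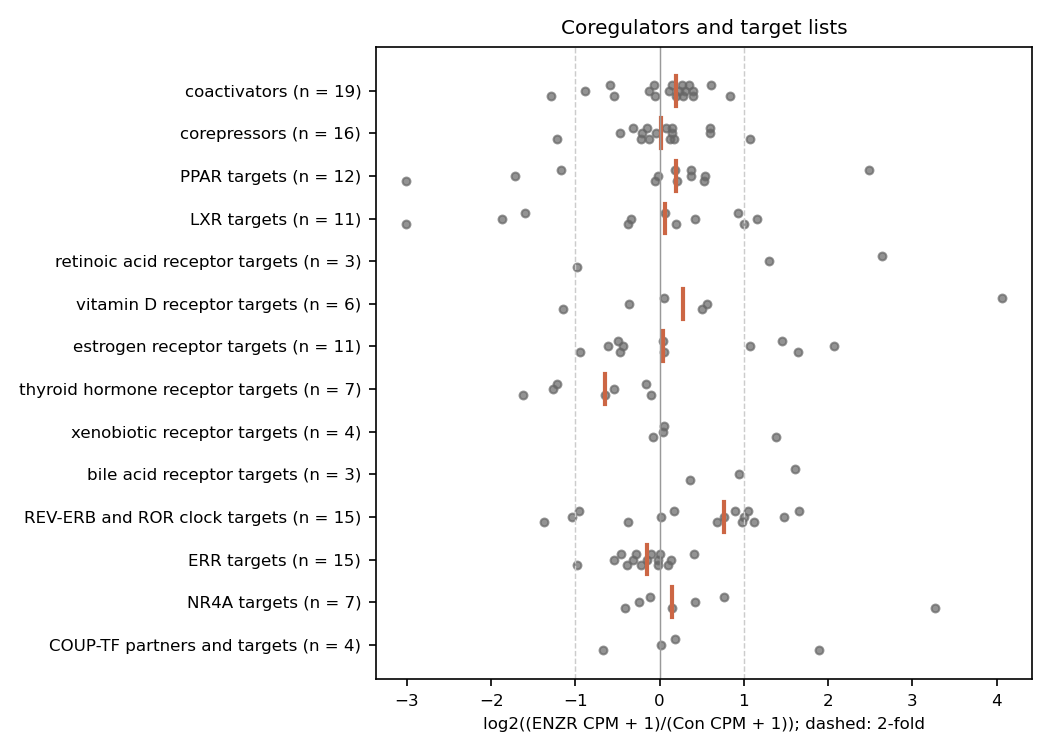
Log2 ratio of ENZR over Con, with a pseudocount of 1 CPM, for each measured gene (grey points) of the coregulator and target lists, with the median as an orange bar where 5 or more genes were measured. The clock list has the highest median bar (0.76) and the thyroid hormone list the lowest (-0.64), while the coactivator and corepressor points gather near 0.

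COUP transcription factors, orphan receptors that mostly repress, included the receptor with the lowest log2 ratio. NR2F1 (COUP-TFI), known from neural development and tumour cell dormancy, stood at 99.3 CPM in Con against 13.1 CPM in ENZR, on 2027 and 325 reads, 7.56-fold lower (6.72 to 8.52). NR2F1-AS1, a non-coding gene named as its antisense partner, had 164 and 25 reads (8.03 and 1.01 CPM). No shared exon of that pair was found in GENCODE 29, but strand use in counting is not given in the sources used here. NR2F2 (COUP-TFII) was at 96.6 and 89.0 CPM, with a ratio of 0.921 (0.867 to 0.979), and NR2F6 at 146 and 87.1 CPM, 1.68-fold lower (1.59 to 1.77). NR2F1 thus stood apart from both paralogs in the size of its difference.

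The 250 bases upstream of the NR2F1 start, chr5:93582972-93583221 (GRCh38.p14, plus strand), are shown as those of the receptor with the lowest log2 ratio. They are all in lower case, as AGGTCA did not occur in them, and RefSeq lists a further start that had none either.
NR2F1: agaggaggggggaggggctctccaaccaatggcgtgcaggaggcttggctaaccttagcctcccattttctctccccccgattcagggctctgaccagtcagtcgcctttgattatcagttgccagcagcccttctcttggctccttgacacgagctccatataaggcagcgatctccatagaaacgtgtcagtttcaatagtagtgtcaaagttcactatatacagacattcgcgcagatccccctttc
Of 4 measured genes on the list of COUP-TF partners and targets, ANGPT1, the angiopoietin that COUP-TFII is known to control, had 0 reads in Con against 67 in ENZR, at least 18.4-fold higher against the floor of 3 reads. ANGPT1 passed the filter on low values only through its level in ENZR, so as a measured gene it could only be higher. ZFPM1, a zinc-finger partner, had a log2 ratio of -0.68.

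The remaining orphan receptors and the HNF4 receptors all lay within 2-fold by the log2 ratio. NR2C2 (TR4) was at 88.1 and 94.7 CPM (ratio 1.08, 1.01 to 1.14) and NR2C1 (TR2) at 15.9 and 27.9 CPM, 1.75-fold higher (1.54 to 2.01). NR6A1, the germ cell nuclear factor, stood at 4.85 and 9.58 CPM, 1.98-fold higher (1.56 to 2.52). NR4A1, an immediate-early receptor induced by growth signals and stress, was at 18.8 and 13.9 CPM, 1.35-fold lower (1.17 to 1.57), while NR4A2 and NR4A3 had at most 11 reads. HNF4G, a fatty acid-binding receptor of the gut, was 2.42-fold lower on 30 and 15 reads (1.26 to 4.85). HNF4G passed the filter on low values only through its level in Con, so as a measured gene it could only be lower. HNF4A had 0 and 1 read. NR5A2, which binds phospholipids, had 4 and 12 reads. No read was found in either library for NR0B1 and NR0B2, which lack a DNA-binding domain, the xenobiotic receptor NR1I2, NR5A1 and RORB. The other members under 1 CPM with at most 3 reads per library were NR1H4, NR2E1, NR2E3, ESRRB and HNF4A, and NR1I3 had 3 and 5 reads.

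Because paralogs of a receptor can bind the same elements, the balance within each family was compared. The change of the read ratio between a pair of paralogs from Con to ENZR does not depend on gene length or on library scaling. Over 9 families it gave 15 pairs with both members measured, 14 of which are plotted, each with an exact 95% interval for counting error, and in each pair the gene with the higher log2 ratio is put first, so every value lies above 1 by construction. The ratio of PPARG to PPARA was 12.3 times higher in ENZR (7.80 to 20.4), and that of NR2F2 to NR2F1 6.96 times (6.09 to 7.97). NR1D1 against NR1D2 gave 5.99 (4.80 to 7.48), RARG against RARB 4.13 (2.66 to 6.54) and THRA against THRB 2.47 (2.18 to 2.79). The smallest value was that of RARG against RARA, 1.21 (1.05 to 1.40).

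**Figure D3:**
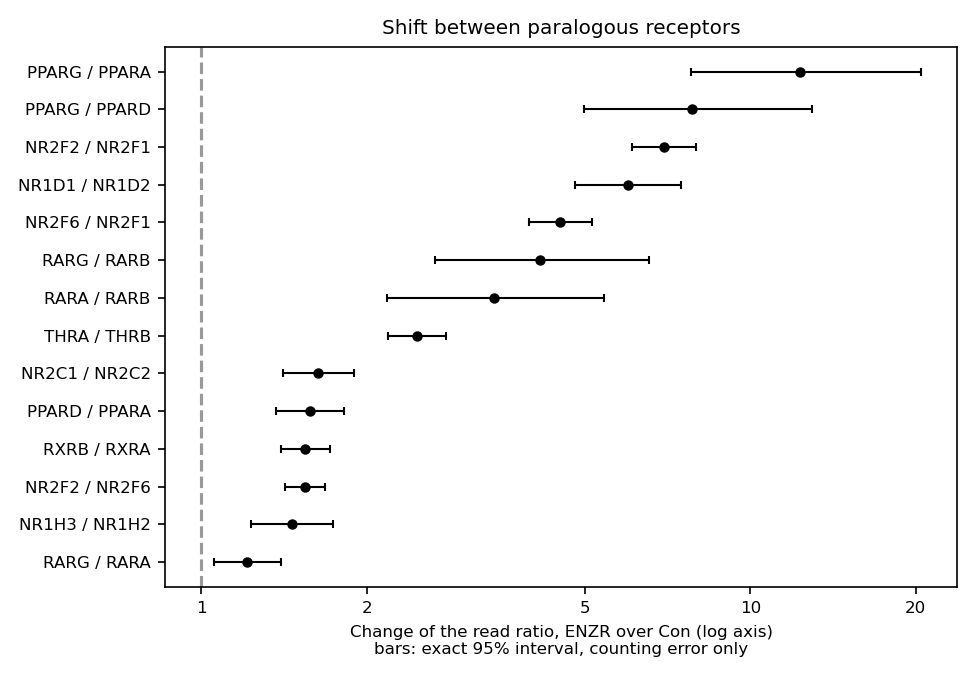
Change of the read ratio within 14 pairs of paralogous receptors, ENZR over Con (log axis, points), with exact 95% intervals for counting error (bars); the gene with the higher log2 ratio is named first. The pairs with PPARG, NR2F1 and NR1D2 lie between 4.51 and 12.3, and the pairs of RXR, LXR and NR2C genes between 1.46 and 1.63.

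Levels of different genes can be compared only per length, and CPM was divided by the length in kilobases of the longest GENCODE 29 transcript. On that scale NR2F6 (60.7 CPM per kilobase), ESRRA (45.9), RXRA (28.7), NR2F1 (25.9) and NR1H2 (23.9) had the highest levels in Con. In ENZR the order began with ESRRA (45.4 CPM per kilobase), NR2F6 (36.2), RARG (19.2), NR1H2 (18.8) and RXRA (17.6). NR2F1 stood at place 4 of 47 in Con and at place 20 in ENZR, while PPARG stood at place 25 and place 16. Without replicates it cannot be said which neighbours in this order differ. Within the PPAR family, PPARG made up 3.98% of the summed level per kilobase in Con and 26.3% in ENZR, and PPARD 72.5% and 61.1%. NR1D2 made up 82.9% of the REV-ERB level in Con and 44.8% in ENZR, as the family's sum went from 16.8 to 8.19 CPM per kilobase. THRB held 55.6% of the thyroid hormone receptor level in Con and 33.6% in ENZR, with sums of 16.1 and 16.9 CPM per kilobase. The summed RXR level was 44.5 CPM per kilobase in Con and 32.4 in ENZR.

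NR1D2, THRB and RARB follow each other on chromosome 3 with no other protein-coding gene between them in RefSeq order, and their paralogs THRA, NR1D1 and RARA lie close together on chromosome 17. All of the chromosome 3 genes of this set were lower in ENZR, with log2 ratios of -1.87, -0.64 and -0.98, and all of the chromosome 17 genes higher, with 0.63, 0.60 and 0.31. This pattern was noticed after the values were seen. The directions held in each setting of scaling and pseudocount that was run. On chromosome 3, the genes next to the set on one side, UBE2E2, UBE2E1, NKIRAS1 and RPL15, had log2 ratios from -0.69 to -0.17. TOP2B, NGLY1 and OXSM on the other side had 0.38, 0.37 and -0.19. On chromosome 17, the genes between NR1D1 and RARA had log2 ratios from 0.02 (CASC3) to 0.42 (WIPF2). Outside the set, MED24 had -0.28, GJD3 -0.49 and TOP2A -0.42. THRA and NR1D1 overlap tail to tail on opposite strands, sharing 263 of the 2772 exon bases of NR1D1 in GENCODE 29. Reads from that stretch cannot be told apart without strand, so the values of this pair are uncertain. The same limit holds for ESRRA (284 of 2448 exon bases shared with TRMT112), NR4A1 (754 of 4053), RARA (556 of 4162 with RARA-AS1) and NR2C2 (756 of 8561 with MRPS25), and to a lesser extent for NR1H3 (189 of 3505 with ACP2). RARB shares 28 of 3216 exon bases with TOP2B, which was far more abundant in reads.

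**Figure D4:**
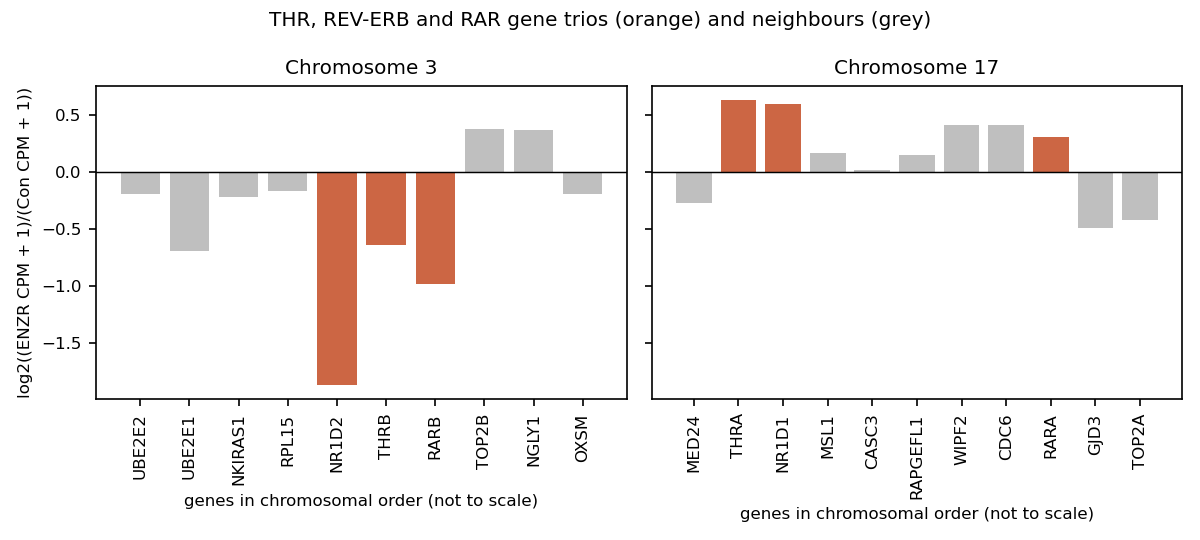
Log2 ratio of ENZR over Con for the THR, REV-ERB and RAR genes (orange) and measured neighbours (grey) on chromosomes 3 and 17, in chromosomal order and not to scale. NR1D2, THRB and RARB lie below 0 (-1.87, -0.64 and -0.98), and THRA, NR1D1 and RARA above it (0.63, 0.60 and 0.31).

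To place each receptor in its chromosomal surroundings, it was set beside 20 measured protein-coding genes, 10 on each side in RefSeq order. Genes were matched by symbol or RefSeq synonym, and a shared synonym can bring in a gene from elsewhere. Examples are ELK1 in the set of NR1D2, SF1 in that of NR6A1 and FADS2 in that of NR1H3. The medians and counts of neighbours are therefore approximate. The neighbours of NR2F1 on chromosome 5 had a median log2 ratio of -0.10, and 0 of 20 were as low as NR2F1. Around PPARG on chromosome 3 the median was 0.09, and all 20 neighbours lay below PPARG. For NR1D2, whose neighbours include THRB and RARB, the median was -0.16 with 1 of 20 neighbours lower, and for RORA 0.03 with 19 of 20 lower. Some smaller differences came with neighbours that leaned the same way. NR3C2 had a log2 ratio of -0.60 beside a neighbour median of -0.45, and NR1H2 -0.34 beside -0.55. PPARD and NR2C1 went against their neighbours, with 0.65 beside -0.35 and 0.77 beside -0.25. The part of the surrounding chromosome in these differences was not tested.

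**Figure D5:**
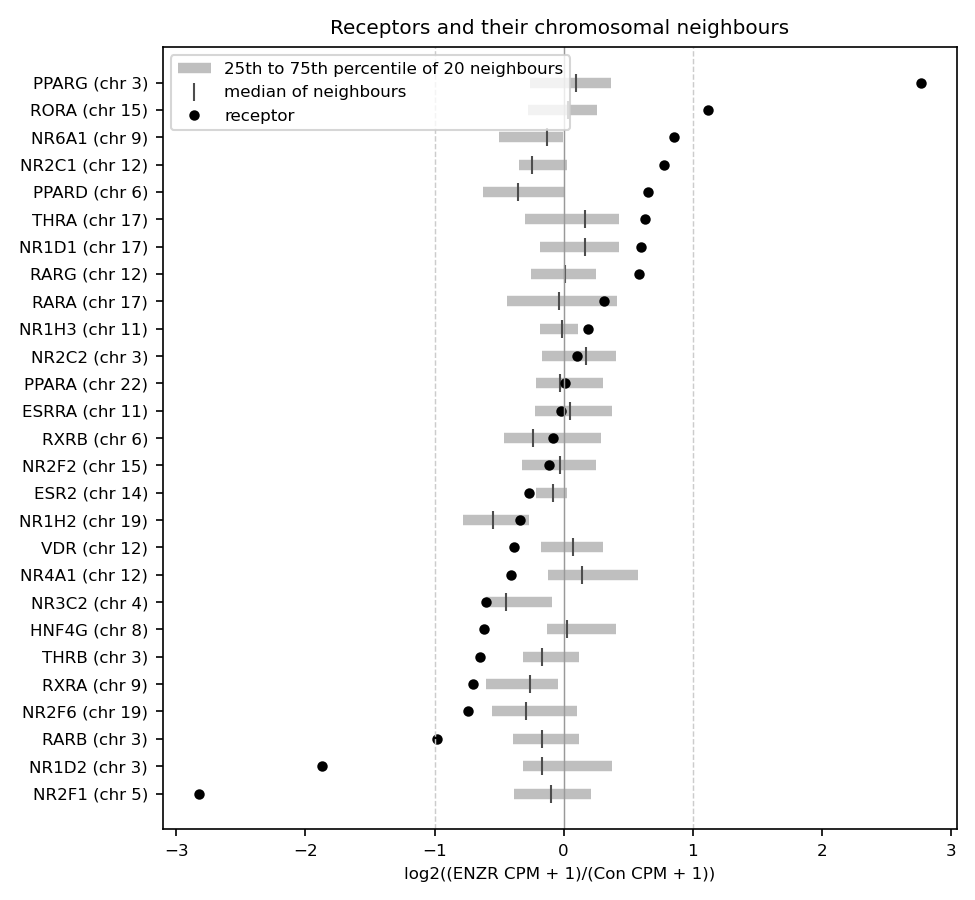
Log2 ratio of ENZR over Con of 27 measured receptors (black points) beside 20 measured protein-coding neighbours each. The tick is the neighbours' median and the grey bar their 25th to 75th percentile, and dashed lines mark 2-fold. Neighbours were matched by symbol or synonym, so some sets hold a gene from elsewhere. NR2F1 (-2.83), NR1D2 (-1.87) and PPARG (2.77) lie far from their neighbours' medians of -0.10, -0.16 and 0.09.

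The coregulators that receptors recruit were measured throughout. Within 2-fold were 18 of 19 coactivators and 14 of 16 corepressors, beside 12239 of the 13803 genes measured, so most genes of any kind were. Of 19 coactivators, 12 were above 0 and 7 below, with a median log2 ratio of 0.19, and of 16 corepressors 8 were above and 8 below, with a median of 0.02. NCOA1, the steroid receptor coactivator SRC-1, stood at 127 CPM in Con against 51.3 CPM in ENZR, 2.47-fold lower (2.31 to 2.64). Its paralogs went the other way, NCOA2 at 48.6 and 87.7 CPM and NCOA3 at 36.0 and 55.7 CPM. NRIP1 (RIP140), a corepressor that estrogen induces, stood at 45.0 and 95.8 CPM, 2.13-fold higher (1.97 to 2.30). HR, also on the corepressor list, was lower as given above. NCOR1, a corepressor of unliganded receptors, was at 177 and 127 CPM. On the estrogen receptor list, 4 of 11 measured genes passed 2-fold upward in ENZR (all genes, 6.69%) and 0 passed it downward (all genes, 4.64%). PGR, also on the list and lower as given above, missed the filter at a mean of 0.958 CPM, and CXCL12 passed it only through its level in ENZR. TFF3, a secreted trefoil peptide, was 3.28-fold lower by the CPM ratio (1.84 to 6.10) but within 2-fold by the log2 ratio. TFF3 passed the filter only through its level in Con. The higher genes were CXCL12, a chemokine (8 and 120 reads), CA12, a carbonic anhydrase (3.16-fold, 43.4 and 137 CPM), KCNK5, a potassium channel (2.88-fold), and NRIP1. GREB1, a classical estrogen-induced gene that androgens also induce in prostate cells, was at 21.3 and 15.6 CPM.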

How the data were processed

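RNA-seq was available for 1 library of C4-2B Con and 1 of C4-2B ENZR. The deposited signal values are TMM-normalized CPM by the authors, per the file name, and Bowtie2 2.1.0, RSEM 1.2.15, edgeR and hg19 appear in the submitters' processing notes without their roles. The sources used here do not give the annotation, nor whether counting used strand. Every value was a whole multiple of 1 step (100% within 0.01 reads), so whole reads were recovered. RSEM shares out reads that map to several genes, so they may be rounded estimates. With 1 library per group there is no residual degree of freedom, so neither a count test nor a p-value was possible. Log2 ratios used a pseudocount of 1 CPM, genes had to average at least 1 CPM over both libraries, and the calculation was tested on simulated data. Intervals and the floor of 3 reads cover counting error only. 0 further columns of sample values were present.

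The receptors, gene lists and tests were chosen with earlier results of these data known, and the target lists come from textbook knowledge. The rule for named genes takes every receptor and, from each list, up to 4 genes with the largest log2 ratio past 2-fold. Other list genes, the pattern on chromosomes 3 and 17 and the RARB promoter were chosen after their values were seen. The promoter of RORA and those of paralogs, which the rule also takes, are not shown. Some genes that the rule takes are not reported here. Promoters (41 of 47 receptors matched) and gene order came from RefSeq (GRCh38.p14), and lengths and overlaps from GENCODE 29, whose build differs from that of the files. The length of RXRA is that of a transcript annotated as non-coding, as its coding models lack the full UTR. Python 3.11.15, scipy 1.17.1 and pandas 2.3.3 were used.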

Additional observations from a re-analysis of the deposited data

How the results depend on the processing

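The pseudocount (0.25 and 5 CPM), the filter (none, and a mean of 5 CPM or more) and the scaling (TMM undone, upper quartile, without the 10 most abundant genes, median of ratios) were changed in turn. The number of receptors at least 2-fold lower went from 2 to 4 with a pseudocount of 0.25 CPM, which adds RARB and HNF4G. The number at least 2-fold higher went from 2 to 1 with a pseudocount of 5 CPM, and to 1 with a mean of 5 CPM or more, which leaves out RORA. All other counts of receptors stayed within 1.5 times, and the medians of the receptors and of the 10 lists followed stayed within their intervals. Lists with 4 or fewer measured genes were not followed, and their planned medians were not run. The signs of 2 of the 28 receptors, ESRRA and RXRB, changed with the scaling. With 5 CPM, 447 genes were at least 2-fold higher and 371 lower, against 923 and 641, and without the filter PGR was the third lower receptor. No paired analysis was possible because each group has 1 library, and for the same reason no replicate could be left out. A count of 0 allows a level of up to 0.147 CPM in Con and 0.121 CPM in ENZR, so receptors without reads are not shown to be absent.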

Other observations

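A few genes differed on the lists for the bile acid and xenobiotic receptors, which were themselves near or below detection. The NR4A list is given beside them, although NR4A1 itself was measured. The bile salt exporter ABCB11, a target of the bile acid receptor NR1H4, had 54 reads in Con against 249 in ENZR, 3.81-fold higher (2.83 to 5.21), although NR1H4 had 3 and 0 reads. SLC51A, a basolateral bile acid transporter, stood at 6.12 and 12.7 CPM. Among xenobiotic receptor targets, GSTA1, a glutathione transferase with close paralogs, had 15 and 87 reads, 4.79-fold higher (2.75 to 8.92), while ALAS1, of haem synthesis, was at 73.0 and 75.4 CPM. On the NR4A list, CCND2, a D-type cyclin, had 1 and 226 reads, a ratio of 187 with an interval of 33.1 to 7400, and NFIL3, a clock repressor, stood at 6.52 and 11.7 CPM. GSTA1 and CCND2 passed the filter on low values only through their level in ENZR.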
